A study of Mus musculus with 36 samples.

Results

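The genes described here are Nrg4, further EGF-family ligands, the ErbB receptors they bind and the receptor inhibitor Errfi1: Nrg4, Nrg1, Btc, Tgfa, Hbegf, Egf, Egfr, Erbb2, Erbb3 and Errfi1, 10 of the 19750 genes on the array with a current symbol. They were found by their gene name in the array files or by the current symbol of the probe's accession, which gave 26 of the 41174 probes that are not controls. Over all 36 arrays, 13 of the 26 probes were expressed, meaning that the mean signal exceeded 2 times the mean local background in the Cy5 and in the Cy3 channel, against 18171 of the 41174. Nrg4 was selected on its measured difference between quercetin-fed and control mice, so its differences between groups are a description with no test. The other members were taken along with it by family and were tested, as was the relation of Nrg4 to them among mice of the same group, which the selection did not use.

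Liver RNA of 36 adult male C57BL/6J mice (named as the substrain C57BL/6JOlaHsd in another description of the design) was measured, each mouse on an Agilent whole-mouse array of its own. Every mouse ate a mild-high-fat diet with 30 energy% of fat, first for an adaptation of 3 weeks (2 weeks in that other description). The baseline group (t=0) was killed after that adaptation, the control group (HF) after 12 more weeks on the same diet, and the quercetin group (HF-Q) after 12 weeks on this diet with 0.33% (w/w) of the plant flavonoid quercetin, with 12 mice in each group. Mice were fasted for at least 2 h before they were killed, and the time of day at killing is not given in the sources used here. The Cy5 channel holds the mouse and the Cy3 channel a pool of all mice, so a value is a log2 ratio of mouse over pool unless it is named as the authors' log2 level, and levels of different probes are not compared. Age and diet duration cannot be told apart in a comparison with t=0, and in whole liver fewer cells of a type and less RNA per cell cannot be told apart.

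ErbB receptors are tyrosine kinases at the cell surface that pair up when a ligand of the EGF family binds. Egfr is the abundant receptor of hepatocytes and binds Egf, Tgfa, Hbegf and Btc, Erbb3 and Erbb4 bind neuregulins, and Erbb2 has no ligand of its own and serves as a partner. Nrg4 is a neuregulin that signals through Erbb4, is known mainly as a secreted product of brown fat, and has been linked to the control of fat synthesis in the liver. Errfi1 (Mig6) binds the kinase domain of Egfr and Erbb2 and inhibits it.

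Some arrays stood apart. HF-Q replicate 2 had 96.7% of its spots well above background in Cy5, against 56.4% to 67.4% on the other 35 arrays. On HF-Q replicates 4, 7 and 8, 14, 4 and 10 spots lay more than 100 units below their own Cy5 local background (at most 5 on the others), and after the background correction the log2 ratios of the whole array had a median absolute deviation of 0.01 to 0.04, against 0.09 to 0.19 on the other 33. A repair set the background of each spot lying below its own background to at most the array's median, in both channels of all 36 arrays. HF-Q replicates 4, 7 and 8 then reached 0.15 to 0.16, and the other 33 arrays 0.13 to 0.2. With this repair no member gene changed its side of the threshold by its brightest probe, nor did the Egfr probes called. HF replicate 5 carried pancreas transcripts, with log2 ratios of 4.55 to 5.78 for Pnlip, Cela2a, Cpa1 and Prss2 against -6.46 to -2.75 in the other 35 mice. In 4 mice (t=0 replicate 7, HF replicates 5 and 7, and HF-Q replicate 9) the adipocyte gene Cfd lay at 1.58 to 2.47, against -1.27 to 0.37 in the other 32, and results are also given without them. All 6 hepatocyte markers were well above background on 36 of 36 arrays. Of the adipocyte markers Cfd was so on 33, Plin1 on 15, Adipoq on 7, Ucp1 on 4 and Lep on 1 array. In the 4 mice high in Cfd, Adipoq lay at 0.19 to 1.36, against -0.41 to 0.24 in the other 32. The range of Plin1 in these mice overlapped with that of the others, and those of Lep and Ucp1 lay within it.

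Sequence of the promoters is shown for Nrg4 and for the genes whose signal followed it most closely over the mice and that hold a motif of the circadian clock, because that likeness is the pattern described after the group values. The windows are the 250 bases before the start site in RefSeq (GRCm38.p6), on the strand of the gene, written 5′ to 3′: Nrg4 at chr9:55283626-55283875 (minus strand), Coq10b at chr1:55052520-55052769 (plus strand) and Gde1 at chr7:118705739-118705988 (minus strand). Capitals mark matches to CACGTG (the E-box, bound by Arntl with its partner Clock) or to TTATGTAA on either strand (the D-box, bound by the clock output factors Dbp and Nfil3).
Nrg4: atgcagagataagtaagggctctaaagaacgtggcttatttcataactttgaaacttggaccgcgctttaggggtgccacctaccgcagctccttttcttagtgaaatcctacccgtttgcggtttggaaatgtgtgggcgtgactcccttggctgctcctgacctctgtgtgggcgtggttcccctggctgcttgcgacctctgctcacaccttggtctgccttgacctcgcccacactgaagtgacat
Coq10b: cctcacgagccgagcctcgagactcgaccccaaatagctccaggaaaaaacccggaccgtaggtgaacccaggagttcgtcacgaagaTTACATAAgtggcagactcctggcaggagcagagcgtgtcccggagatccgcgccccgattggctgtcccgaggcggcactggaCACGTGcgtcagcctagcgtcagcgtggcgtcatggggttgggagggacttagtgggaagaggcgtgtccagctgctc
Gde1: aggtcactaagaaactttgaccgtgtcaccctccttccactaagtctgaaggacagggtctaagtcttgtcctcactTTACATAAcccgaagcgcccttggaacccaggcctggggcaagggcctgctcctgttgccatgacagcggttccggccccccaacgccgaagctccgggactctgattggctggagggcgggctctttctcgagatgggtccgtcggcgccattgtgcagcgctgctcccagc
The window of Nrg4 held neither run of letters, that of Coq10b held 1 of each (the D-box starting 162 and the E-box 78 bases before the start) and that of Gde1 held a D-box starting 173 bases before it. Over the 32851 windows of this length in the table, 6.02% held CACGTG and 0.819% held TTATGTAA. Usp2 and Slc5a6, also among the genes most like Nrg4, held no match in their 3 windows. No match was found in the 9 windows available for 7 of the 10 members. The motifs were chosen after the sequences had been seen, and a match is not a measured binding site.

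Hepatic Nrg4 signal, the measure it was selected on, was 1.82-fold higher with quercetin than without, and each of the 12 HF-Q mice lay above the median of the HF mice. The single Nrg4 probe (A_51_P159803, chr9:55024819-55024878 in build mm8) was well above background on 36 of 36 arrays, at 15.9 times background in Cy5. In the t=0 mice its log2 ratio ran from -0.61 over a median of -0.21 to 0.90, in the control mice from -1.45 over -0.59 to 0.43, and in the quercetin-fed mice from -0.37 over 0.27 to 1.01. The control mice were the low group, with 10 of 12 below 0, and the quercetin-fed mice the high group, with 10 of 12 above 0, but the groups overlapped and only 4 quercetin-fed mice exceeded the highest control mouse. The t=0 mice overlapped with both other groups, with 4 of 12 above 0.5 and 3 of 12 below -0.5, while 4 control mice lay below the lowest t=0 mouse and 1 quercetin-fed mouse above the highest.

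**Figure D1:**
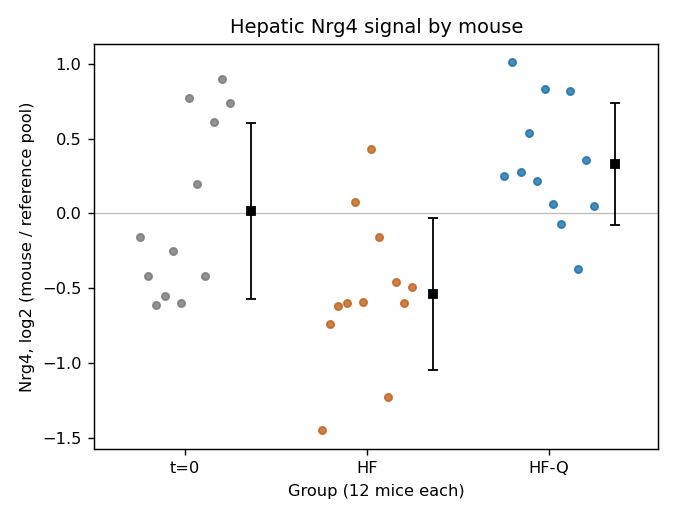
Log2 ratio of the Nrg4 probe over the reference pool in each mouse, with 12 points per group and the mean ± SD as a square with bars. Control mice (HF) lie mostly below 0 and quercetin-fed mice (HF-Q) mostly above it, and t=0 mice overlap with both.

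Mean Nrg4 was 0.02 ± 0.59 at t=0, -0.54 ± 0.51 in HF and 0.33 ± 0.41 in HF-Q (SD, n = 12 each). The difference of HF-Q minus HF was 0.87, that of HF minus t=0 was -0.55, and that of HF-Q minus t=0 was 0.31. The last 2 differences share the t=0 mice, and each shares a group with the first. On the authors' log2 levels the means were 9.60 ± 0.64, 9.02 ± 0.56 and 9.97 ± 0.48 for t=0, HF and HF-Q, in the same order. Within the 9 slides, HF-Q lay above HF on 8, with differences from -0.37 to 1.60 and a median of 0.46.

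The repair was applied to all arrays, and HF-Q replicates 4, 7 and 8 were not left out. With the repaired local backgrounds, Nrg4 moved from 0.54 to 0.75 in HF-Q replicate 4, from 0.06 to -0.01 in replicate 7 and from -0.07 to -0.28 in replicate 8, and HF-Q minus HF stayed at 0.87. It was 0.80 without HF-Q replicate 2, 0.92 without HF replicate 5, and 0.98 without the 4 mice high in Cfd. Those 4 mice had Nrg4 ratios of 0.77 (t=0), 0.08 and 0.43 (HF) and 0.82 (HF-Q), and HF replicate 7, at 0.43, was the highest control mouse.

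Nrg4 varied widely between mice on the same diet. The within-group SD of Nrg4 was 0.51, at the percentile 98.6 of all expressed probes, whose median SD was 0.14. Among the genes most like Nrg4 over the 36 arrays, out of 11347 genes by their brightest expressed probe, were Coq10b (r = 0.88), Usp2 (0.87), Gde1 (0.87) and Slc5a6 (0.86). Coq10b is a coenzyme Q binding protein of mitochondria, Usp2 a deubiquitinase with a strong daily rhythm, Gde1 a phosphodiesterase and Slc5a6 a vitamin transporter. With the group means removed, their r with Nrg4 was still 0.81, 0.81, 0.79 and 0.80, so the likeness was also seen among mice on the same diet. These genes were picked for their likeness, so no test is given. Their HF-Q minus HF differences were 0.90 for Coq10b, 1.36 for Usp2, 0.43 for Gde1 and 0.40 for Slc5a6.

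Nrg4 was also set against Arntl, chosen with these results known, the core activator of the circadian clock, whose liver transcript is low when that of its targets is high. Mean Arntl was -0.08 ± 0.66 at t=0, 0.45 ± 0.39 in HF and -0.31 ± 0.38 in HF-Q (SD, n = 12 each), which is the reverse order of Nrg4. Among the t=0 mice Nrg4 fell as Arntl rose (r = -0.84, rho = -0.86), and r was -0.78 without the 2 mice farthest from the median of Arntl. In HF mice r was -0.59 and rho -0.37, and r went to 0.07 without the 2 farthest mice, so the relation in HF rested on those mice. They were HF replicates 5 and 7, with Arntl at -0.08 and -0.36, both high in Cfd, and replicate 5 also carried pancreas transcripts. In HF-Q mice r was -0.45 and rho -0.42, with r = -0.31 without the 2 farthest. The lowest Arntl in HF-Q, -1.05, was that of replicate 9, also high in Cfd. The relation without the mice high in Cfd was not examined. Since Arntl was chosen for this pattern, these correlations over 12 mice each are a description with no test. With Arntl as a covariate the Nrg4 difference was 0.39 for HF-Q minus HF, -0.15 for HF minus t=0 and 0.16 for HF-Q minus t=0, and the number of probes called between HF-Q and HF went from 626 to 0. That fit leaves 1378 of 18371 probes at an unadjusted limma p under 0.05, against 3105 of 18372 without the covariate. Arntl itself differed between the groups, so diet and the position of the clock cannot be told apart by it.

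**Figure D2:**
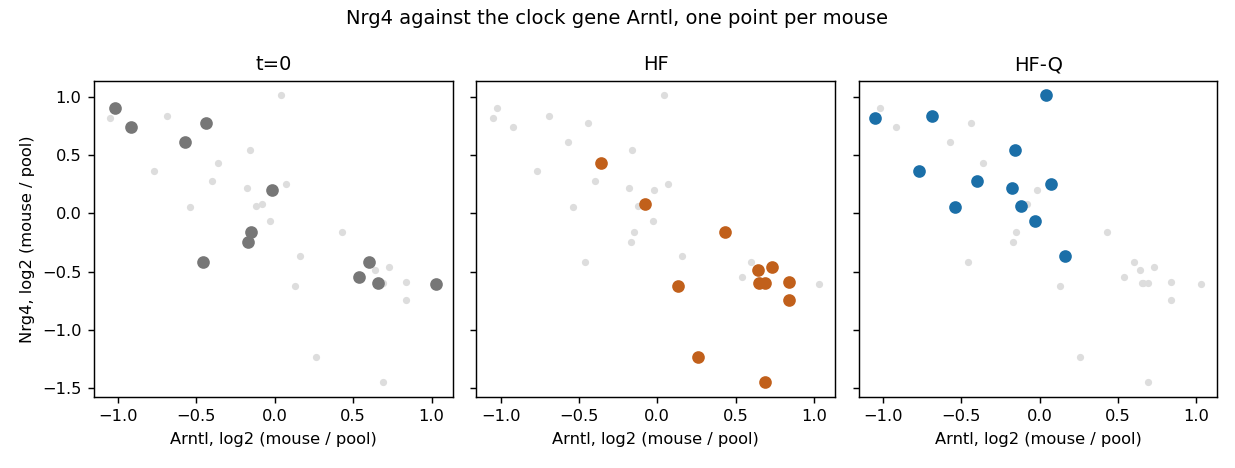
Log2 ratio of Nrg4 against that of Arntl, with a panel for each group in which its 12 mice are coloured and the other mice are pale. The relation is closest at t=0 (r = -0.84), and most HF-Q mice lie at low Arntl and high Nrg4, as do some t=0 mice.

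None of the other members was called between quercetin-fed and control mice. Of the 5 other genes with an expressed probe (Tgfa, Hbegf, Egfr, Erbb3 and Errfi1, each by its brightest probe), 0 were called by limma at an adjusted p under 0.05 and 0 had an unadjusted p under 0.05, where 3.3% of all 11563 genes were called (2.04% higher and 1.26% lower). The methods' t-test also called 0 of the 5, and 483 of all 18372 probes. The same held for their 12 expressed probes, of which 0 were called against 3.41% of all 18372 probes (2.27% higher and 1.14% lower), and 1, the dim Egfr probe A_52_P5855, had an unadjusted p under 0.05 (difference 0.41, p = 0.0499, limma adjusted p = 0.296). The 95% intervals of HF-Q minus HF were -0.04 to 0.09 for Tgfa, -0.07 to 0.12 for Hbegf, -0.14 to 0.43 for Erbb3, -0.34 to 0.45 for Errfi1 and -0.61 to 0.19 for Egfr.

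**Figure D3:**
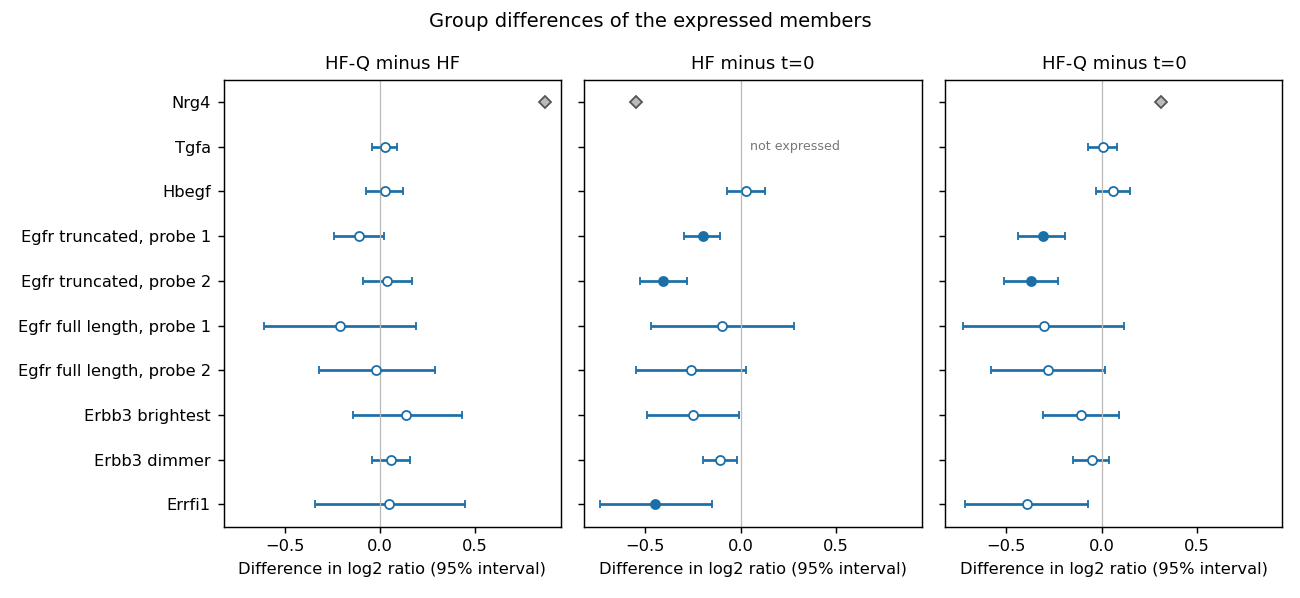
Differences between groups in log2 ratio for Nrg4 (grey diamonds, described only) and, with 95% intervals, for probes of the other expressed members (circles, filled where the limma adjusted p is under 0.05). The Egfr probes A_52_P5855 and A_52_P175190 and the Erbb3 probe A_51_P488243 are not drawn. Filled circles appear for the truncated Egfr transcript in both comparisons with t=0 and for Errfi1 in HF minus t=0, and none for HF-Q minus HF.

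Among the ligands other than Nrg4, Tgfa and Hbegf, which both activate Egfr, varied little. The SD of Tgfa (A_51_P415126) between mice was 0.07. That is the SD of a mean over 10 spots, so it is not comparable with the median SD of 0.08 between single spots of the probe on an array. Its mean log2 ratio was -0.03 ± 0.08 at t=0, -0.05 ± 0.06 in HF and -0.02 ± 0.07 in HF-Q (SD, n = 12 each). Hbegf (A_51_P181565) had means of -0.12 ± 0.10, -0.09 ± 0.13 and -0.06 ± 0.09 in the same order. On HF-Q replicates 4, 7 and 8, the arrays of narrow ratios, Tgfa lay at -0.02, -0.01 and 0 and Hbegf at 0, 0.02 and -0.01. The HF-Q SDs and the intervals of these probes include those narrowed values. With repaired local backgrounds HF-Q minus HF was 0.02 for either probe (limma adjusted p = 0.84 and 0.91). Both probes were near the background, at 3.08 and 3.35 times it in Cy5, and neither was called in a comparison in which it was tested. Tgfa missed the expression limit in HF against t=0.

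Nrg1, Btc and Egf, and the receptor Erbb2, lay below the expression limit, so their ratios say little about these transcripts. The 5 Nrg1 probes were well above background on 2 to 7 of 36 arrays, and the 2 Btc probes on 1 and 28. The Egf probe was so on 34 arrays and the better Erbb2 probe (A_52_P49250) on 36, at 2.33 and 2.54 times background in Cy5. Without the filter on dim probes, the 13 to 15 member probes below the limit differed between groups by -0.14 to 0.14, and 0 of them were called over 41174 probes in any comparison, with 0 at an unadjusted limma p under 0.05 in both comparisons of HF-Q and 1 in HF against t=0. Of all 41174 probes in that fit, 494, 3967 and 2670 were called in HF-Q against HF, HF against t=0 and HF-Q against t=0, and 4477, 8912 and 7787 had an unadjusted p under 0.05.

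Egf, the founding ligand of the family, was high in a single liver. Its log2 ratio was 1.89 in HF replicate 5, the array with the pancreas transcripts, and from -0.15 to 0.01 in the other 11 control mice. All t=0 mice lay between -0.16 and 0.02 and all HF-Q mice between -0.14 and 0.01, so no other mouse came near it. The control mean was 0.08 ± 0.57 (SD, n = 12) with this mouse and -0.08 ± 0.06 (SD, n = 11) without it.

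Egfr, the main ErbB receptor of hepatocytes, was measured by 6 probes, all with a negative difference from t=0 in both later groups. However, A_52_P106259 turned to 0.09 in HF minus t=0 under median centring (0.04 after repair). In HF-Q minus t=0 it turned to 0.18 under 1 of 20 alternative settings. According to their accessions, A_51_P392242 and A_52_P56471 (chr11:16787385-16787444 and chr11:16783545-16783604, build mm8) were designed on transcript variant 2, which encodes a truncated receptor without the kinase domain, and A_52_P106259 and A_52_P674338 (chr11:16813815-16813874 and chr11:16812181-16812240) in transcript variant 1, which encodes the full-length receptor. Both probes of the truncated transcript were called lower in both later groups than at t=0. Neither full-length probe was called, but their differences in HF-Q minus t=0 were of about the same size with a wider spread, and a difference between the transcripts was not tested.

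For A_51_P392242 the log2 ratio ran from 0.01 over a median of 0.15 to 0.32 at t=0, from -0.27 over -0.05 to 0.13 in HF and from -0.55 over -0.13 to 0.27 in HF-Q. All 12 control mice lay below the t=0 median, 10 of them below the lowest t=0 mouse, and 11 of 12 quercetin-fed mice lay below the lowest t=0 mouse. The difference was -0.20 for HF minus t=0 (SE 0.04, limma adjusted p = 0.00175) and -0.31 for HF-Q minus t=0 (SE 0.06, limma adjusted p = 0.00131), where 24.9% and 17% of all probes were called (12.3% and 8.59% lower, 12.6% and 8.39% higher). For A_52_P56471 the ratio ran from -0.17 over 0.20 to 0.37 at t=0, from -0.41 over -0.25 to 0.13 in HF and from -0.51 over -0.11 to 0.12 in HF-Q. All 12 mice of either later group lay below its t=0 median. Its differences were -0.41 (SE 0.06, limma adjusted p = 4.2e-05) and -0.37 (SE 0.07, limma adjusted p = 0.000615). HF was lower than t=0 on 9 of 9 slides by the first probe and on 8 of 9 by the second.

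These calls depended on the scaling. Under median centring, which moved the median of all probes in HF minus t=0 from 0.01 to 0.12, the differences of HF minus t=0 were -0.03 and -0.23 for the 2 probes and those of HF-Q minus t=0 were -0.19 and -0.24, and none was called (limma adjusted p = 0.87, 0.0752, 0.535 and 0.39). With median centring after repair of the local backgrounds, the first probe was not called in HF against t=0 (-0.08, adjusted p = 0.4) and the 3 others were (-0.29, -0.29 and -0.35, adjusted p = 0.00423, 0.0492 and 0.0198). In HF-Q against t=0 both calls were lost with loess and scale normalization at about the same differences (-0.29 and -0.40, adjusted p = 0.298 and 0.0651) and were kept with it after repair (-0.32 and -0.38, adjusted p = 0.0014 and 0.00064). The Cy5 channel alone lost that of A_52_P56471 there (-0.28, adjusted p = 0.141), and the authors' values that of A_51_P392242 in HF against t=0 (-0.15, adjusted p = 0.0584). The sign of both probes stayed negative against t=0 under all 20 alternative settings.

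The full-length transcript varied widely between mice of a group. For its brightest probe, A_52_P106259, the log2 ratio ran from -0.64 over 0.18 to 1.17 at t=0, from -0.78 over 0.24 to 0.69 in HF and from -1.22 over 0.16 to 0.62 in HF-Q, so the groups overlapped almost throughout. The SD between mice was 0.52 and the median SD between the 10 spots of the probe on an array 0.03. Its differences were -0.10 for HF minus t=0 (SE 0.18, limma adjusted p = 0.73) and -0.30 for HF-Q minus t=0 (SE 0.21, limma adjusted p = 0.326). The second full-length probe gave -0.26 and -0.28 (limma adjusted p = 0.172 and 0.198), and the intervals of the full-length probes include the differences of the truncated transcript. With group means removed, the 2 truncated-transcript probes followed each other over the mice with r = 0.75, and each followed the brightest full-length probe with r = 0.47 and 0.43.

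The other 2 Egfr probes are named in the array files only. A_52_P5855 (chr11:16655638-16655697), at 3.95 times background, differed by -0.69 for HF minus t=0 (SE 0.23, limma adjusted p = 0.0274), with all 12 control mice below the t=0 median. Its call was lost with Arntl as a covariate (-0.64, adjusted p = 0.0901) and without the mice high in Cfd (-0.67, adjusted p = 0.0556). A_52_P175190 was not called in any comparison.

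**Figure D4:**
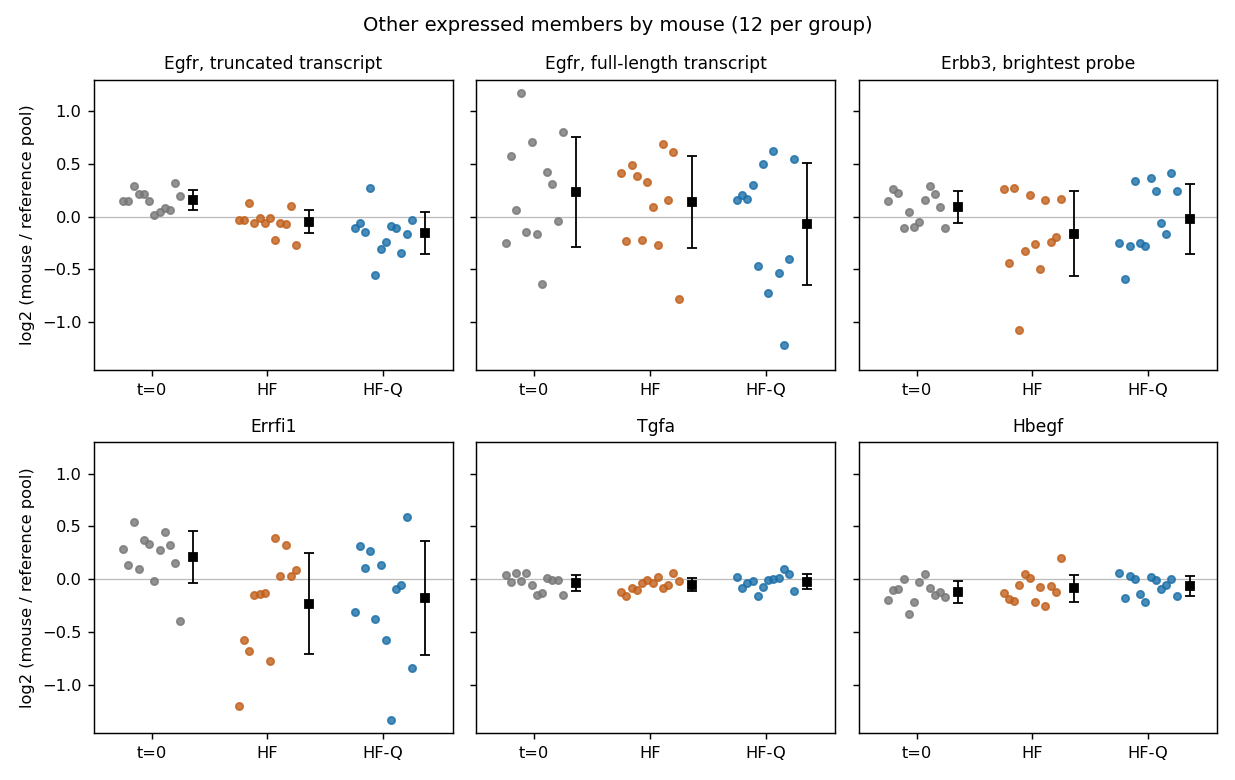
Log2 ratio over the reference pool in each mouse for 6 probes, with 12 points per group and the mean ± SD as a square with bars. The truncated Egfr transcript (A_51_P392242) and Errfi1 are higher at t=0, the full-length Egfr probe (A_52_P106259) spreads widely in every group, and Tgfa and Hbegf stay near 0.

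Erbb3, the neuregulin receptor with a weak kinase, was measured by 5 probes and called by none of them. Its brightest probe, A_52_P432949 (chr10:127970642-127970701), was at 152 times background, whereas the 4 others were at 2.23 to 4.52 times. The array files name this probe Erbb3, but its accession matched no current gene entry, so its identity is less sure than that of the others. Its log2 ratio ran from -0.11 over 0.12 to 0.29 at t=0, from -1.07 over -0.22 to 0.27 in HF and from -0.59 over -0.11 to 0.41 in HF-Q, with 7 of 12 control mice below the lowest t=0 mouse. The difference of HF minus t=0 was -0.25 (SE 0.12, limma adjusted p = 0.112). The dimmer probe A_51_P342050 gave -0.11 (SE 0.04, limma adjusted p = 0.0639).

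Errfi1, the feedback inhibitor of Egfr, was lower in control mice than at t=0. The log2 ratio of its probe (A_51_P382393, chr4:149712217-149712276), at 1750 times background, ran from -0.40 over 0.28 to 0.54 at t=0, from -1.20 over -0.13 to 0.39 in HF and from -1.33 over -0.07 to 0.59 in HF-Q. Of the 12 control mice, 10 lay below the t=0 median and 4 below the lowest t=0 mouse, and the later groups spread more widely than t=0. The difference was -0.45 for HF minus t=0 (SE 0.14, limma adjusted p = 0.0258) and -0.39 for HF-Q minus t=0 (SE 0.16, limma adjusted p = 0.0876), and HF lay lower on 7 of 9 slides. The call in HF against t=0 was lost under median centring (-0.26, adjusted p = 0.165), with the Cy5 channel alone (-0.33, adjusted p = 0.126), with the slide as a block (-0.45, adjusted p = 0.0614) and without the mice high in Cfd (-0.42, adjusted p = 0.0525). With the slide as a block, HF-Q minus t=0 was called instead (-0.46, adjusted p = 0.0443). HF-Q minus HF was 0.05 (SE 0.19, adjusted p = 0.925).

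By brightest probe, 1 of the 4 other members tested in HF against t=0 was called (Errfi1), where 25.4% of all 11267 genes were (14.2% higher and 11.2% lower), and 0 of 5 in HF-Q against t=0, where 17.3% of all 11545 genes were (9.09% higher and 8.23% lower). Counting any probe, Egfr joined in both comparisons, but a gene with several probes has more chances. The share of all genes called by any probe was not computed. Of the expressed probes of these members, 4 of 10 were called in HF against t=0, beside 24.9% of all probes. In HF-Q against t=0 it was 2 of 12, beside 17%. In HF against t=0, 2 of the 4 had an unadjusted limma p under 0.05, beside 6676 of all 17778 probes. In HF-Q against t=0 it was 1 of the 5, beside 5747 of all 18360 probes. The methods' t-test called 1 in HF against t=0, where it called 4223 of all 17778 probes, and 0 in HF-Q against t=0.

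No relation between Nrg4 and another member over the mice passed the threshold. With group means removed over 36 mice, r with Nrg4 was -0.31 for Erbb3, -0.18 for Tgfa, -0.15 for Egfr, 0.14 for Errfi1 and 0.02 for Hbegf, and rho was -0.29, -0.14, -0.18, 0.14 and 0.09. The permutation test within groups (100000 resamples, two-sided, 5 relations) gave p = 0.0588 for r and 0.0777 for rho of Erbb3, adjusted 0.294 and 0.388, and at least 0.312 for r and 0.314 for rho of the others. Without the 2 mice farthest from the median of Nrg4, r was -0.18 for Erbb3. Within the groups, r of Errfi1 with Nrg4 was -0.57 at t=0, 0.23 in HF and 0.55 in HF-Q, and the difference between groups was not tested.

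Downstream of the receptors, a list of 61 genes of ErbB signalling was followed, of which 60 are on the array. Between quercetin-fed and control mice 0 of the 50 expressed genes were called, where 3.3% of all genes were. An unadjusted limma p under 0.05 was found for 7 of them, and for 3105 of all 18372 probes. The methods' t-test called 0 of the 50 genes and 483 of the 18372 probes. The median difference of the list was 0.03 against -0.01 over all genes. Erbb4, the receptor of Nrg4, differed by 0.03 (SE 0.03, limma adjusted p = 0.641). Its pooled SD between mice was 0.06, no larger than the 0.07 of the dim Tgfa probe. The level of the Erbb4 probe over background is not given here, so a compressed ratio cannot be told from an unchanged transcript.

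In HF against t=0, 12 of 49 expressed genes of the list were called, 8 higher and 4 lower, which is 24.5% and near the 25.4% of all genes. The split depended on the scaling, and was 12 higher and 0 lower under median centring. Dusp6, a phosphatase that switches off the MAP kinase Erk, rose by 0.53 (SE 0.13, limma adjusted p = 0.00348), with all 12 control mice above the t=0 median. The cell cycle gene Ccnd1 rose by 0.38 (SE 0.09, adjusted p = 0.00301) and the early response gene Jun by 0.30 (SE 0.11, adjusted p = 0.0368). The adaptors Nck1 and Shc1 rose by 0.28 and 0.11 and the phosphatases Ptpn1 and Ptpn11 by 0.28 and 0.12. The phospholipase Plcg1 fell by 0.24 (SE 0.05, adjusted p = 0.0014), the ligand Epgn by 0.23, the sheddase Adam17, which frees ErbB ligands from the cell surface, by 0.15, and the ubiquitin ligase Rnf41, which degrades Erbb3, by 0.14.

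In HF-Q against t=0, 6 of 50 were called, 5 higher and 1 lower, which is 12% against 17.3% of all genes. Ccnd1 rose by 0.51 (SE 0.11, limma adjusted p = 0.00175), the GTPase Hras by 0.30, the kinase Akt2 by 0.22, Nck1 by 0.20 and Ptpn11 by 0.15, and Plcg1 fell by 0.22. The number of calls depended on the processing: it was 1 higher and 0 lower with median centring, 2 and 0 with Cy5 signals alone, 2 and 0 after scaling on top of loess, 6 and 3 with Feature Extraction's own signals and 4 and 3 without background subtraction, and 7 in all with repaired local backgrounds. Dusp6, at 0.27, was not called there (adjusted p = 0.16).

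**Figure D5:**
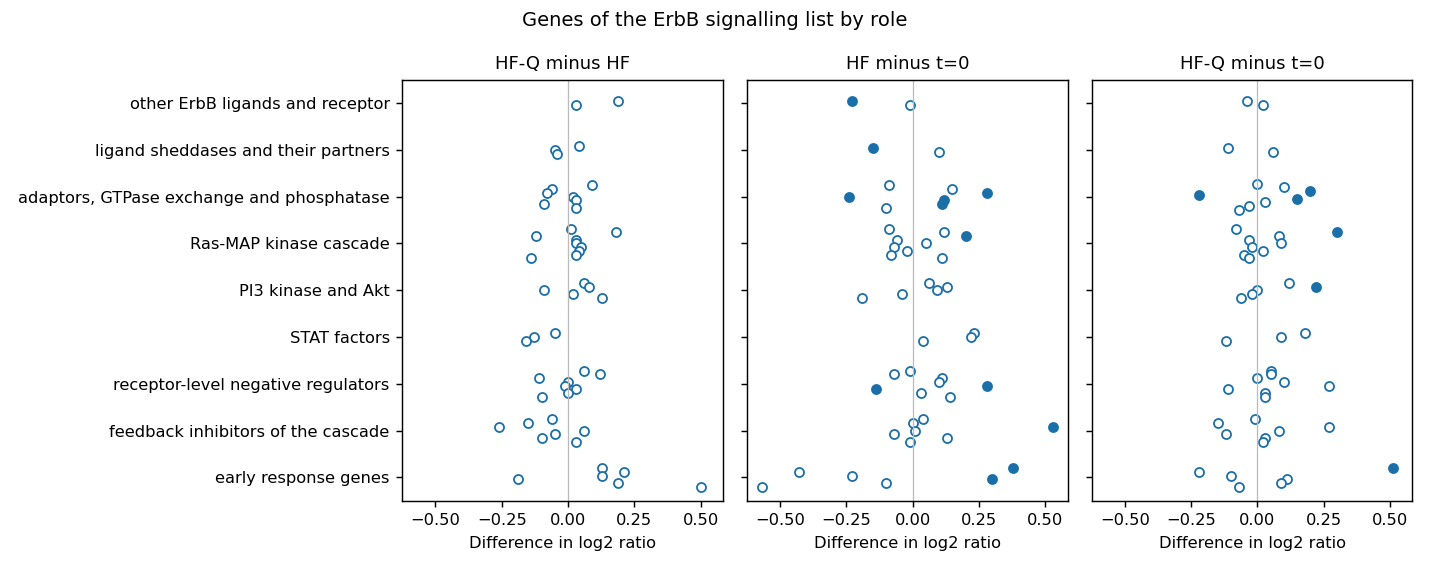
Differences in log2 ratio of the expressed genes of the ErbB signalling list, a point for each gene, by role and comparison, filled where the limma adjusted p is under 0.05. No point is filled for HF-Q minus HF, and Dusp6, at 0.53, is the highest point in HF minus t=0.

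Some markers of liver cells were also called between the groups. Of the 4 expressed cholangiocyte markers, 3 were called higher in HF than at t=0 (Sox9 by 0.55, Krt19 by 0.41 and Krt7 by 0.27) and Sox9 was lower in HF-Q than in HF by 0.52, and the mean over the 4 ran from -0.47 to 0.23 at t=0, from -0.10 to 0.66 in HF and from -0.53 to 0.11 in HF-Q. The erythroid gene Hba-a1 was higher than at t=0 by 0.85 in HF and by 1.14 in HF-Q. The adipocyte gene Cfd was not called in any comparison, and no Kupffer, stellate or lymphocyte marker was. Of 5 endothelial markers, Pecam1 alone was called, in HF-Q against HF (0.23) and in HF against t=0 (-0.26). Of the 6 hepatocyte markers, Cyp2e1 was called in HF-Q against HF (0.34) and HF against t=0 (-0.44), Ttr against t=0 in HF (-0.25) and HF-Q (-0.33), and Hnf4a in HF-Q against t=0 (0.19). The erythroid gene Alas2 was lower in HF-Q than at t=0 (-0.26). Over all marker lists 3 of 36, 7 of 34 and 4 of 36 expressed genes were called in HF-Q against HF, HF against t=0 and HF-Q against t=0, which is 8.33%, 20.6% and 11.1% beside 3.3%, 25.4% and 17.3% of all genes. Their part in the results for the ErbB genes was not tested.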

How the data were processed

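Deposited were the unnormalized scanner outputs, with a median intensity for spot and surroundings in either channel, as measured by Agilent Feature Extraction (10.5.1.1 per the labels, 9.1 per the methods), and signals processed by that program. The authors' processed table holds log2 Cy5 values normalised against Cy3 for 23256 spots (21781 probes), with equal column medians of 8.96.

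Here the intensities were corrected by normexp (offset 50), normalised by loess within arrays after 1639 control spots and 113 to 217 flagged spots per array had been left out, and averaged per probe. Groups were compared pairwise with limma 3.58.1 (lmFit, eBayes, two-sided, R 4.3.3), with Benjamini-Hochberg adjustment over all probes expressed in the 24 arrays compared. Called means an adjusted p under 0.05. A gene is given by its brightest expressed probe. The number of arrays limits the precision. In simulated data for HF-Q against HF (18372 probes), 90% of changes of 0.5 and 99% of changes of 1 were recovered, and 11 unchanged probes were called. The changed probes were drawn at random from all expressed probes, with independent normal noise. The median SD within groups over expressed probes was 0.14, against 0.44 for Errfi1 and 0.52 for the Egfr probe A_52_P106259. The shares recovered therefore do not apply to members that vary so widely.

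The members, lists, markers and covariate were chosen with earlier results of these data known. Named were every member, every called gene of the signalling list, the 5 genes most like Nrg4, and Arntl, except 2 genes that are not reported here. Genes named in the marker paragraph lie outside that rule, from the marker list. Equal replicate numbers gave no pairing of mice: the median correlation of same-numbered residuals was -0.03, 0.05 and 0.01 in the 3 comparisons, with 3, 4 and 1 of 12 pairs over 0.1. The methods state that the control and quercetin-fed mice were housed individually, and do not describe the t=0 mice. The limma p-values set a group difference against the spread between the mice measured, moderated over probes. For HF-Q that spread includes the arrays of narrow ratios. Alternatives changed the background, normalisation, channel, filter, test and covariates or left out arrays; the repaired backgrounds, the fits without HF replicate 5 and those without mice high in Cfd were added after the data had been seen.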

Additional observations from a re-analysis of the deposited data

How the results depend on the processing

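With 12 mice per group, the differences within the intervals given remain compatible with the data, and dim probes have compressed ratios. Under the alternatives the Nrg4 difference was 0.39 to 1.03 for HF-Q minus HF. It was -0.67 to -0.15 for HF minus t=0 and 0.16 to 0.45 for HF-Q minus t=0. The lowest sizes were those under the Arntl covariate. Nrg4 was selected on these same arrays, so a sign kept over their reprocessing is a description and no support.

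Of all probes, 626 were called between HF-Q and HF; the count was 69 with median centring, 85 with loess and scale normalization, 207 with the Cy5 channel alone, 266 with the slide block and 0 with the Arntl covariate. With local backgrounds repaired on all arrays it was 567. With scale normalization, median centring or Cy5 alone on top of the repair it was 612, 166 or 184. The low count of 85 was thus not kept after the repair. Nor was an Errfi1 difference of -0.99 for HF-Q minus HF with loess and scale normalization, which was 0.04 after it. The share of higher calls went from 66.6% to 26.1% with median centring. In HF against t=0 the count went from 4426 to 2806 (Cy5 alone) and 2811 (Cy5 alone, repaired), and the share of higher calls from 50.5% to 88.6% with median centring. In HF-Q against t=0 it went from 3118 to 347 (median centring), 576 (scale), 1214 (Cy5 alone), 939 (repaired, median centring) and 1179 (repaired, Cy5 alone), against 3290 with repaired backgrounds and scale. The causes of these changes were not tested.

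Other members called in HF against t=0 went from 1 to 0 with median centring or Cy5 alone (repaired backgrounds included), the slide block and without the mice high in Cfd; in HF-Q against t=0 they went from 0 to 1 with the slide block. Called genes of the signalling list went from 0 to 1 in HF-Q against HF with the authors' processed values. In HF against t=0 they went from 12 to 5 (Cy5 alone), 7 (no filter on dim probes), 7 (slide block), 6 (Arntl), 20 (repaired, median centring) and 6 (repaired, Cy5 alone). In HF-Q against t=0 they went from 6 to 1 (median centring), 2 (scale), 2 (Cy5 alone), 2 (repaired, median centring) and 2 (repaired, Cy5 alone).

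Leaving out HF-Q replicate 2 or HF replicate 5 gave 566 to 686 probes for HF-Q against HF. A replicate block, although the numbers did not pair the mice, gave 443, 4034 and 2639 called probes in the 3 comparisons, 0, 1 and 0 other members called and 0, 11 and 5 genes of the list. No correlation of Nrg4 with a member passed the adjusted threshold under any alternative.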
